A study of Mus musculus with 6 samples.

Results

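Chromatin-modifying and remodelling genes were examined for Dppa2 at their transcription start sites (TSSs) in mouse embryonic stem cells (ESCs). The genes were the 167 protein-coding entries of GENCODE M1, out of 22367 on the 21 chromosomes of the peak list, whose symbols belong to families of histone-modifying enzymes, histone and DNA methylation readers, Polycomb proteins and nucleosome remodellers. Hdac4 has a pair of entries, so that the 167 entries carry 166 symbols. A gene was called bound when the midpoint of a Dppa2 peak lay within 1000 bp of a TSS of any of its transcripts. By this rule 34 of the 167 genes were bound and 133 were not.

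The peaks come from an anti-V5 ChIP-seq of CGR8 cells, a mouse ESC line kept without feeders in serum and LIF. These cells stably expressed Dppa2 with a V5 epitope tag at its N terminus from a pPyCAG vector. They had been selected with puromycin after transfection, so the protein followed was a tagged one made from a transgene. The parental CGR8 cells, which carry no V5 tag, gave the control ChIP that the authors used in peak calling. The series also holds ChIP-seq of CGR8 cells for H3K4me1, H3K4me3, H3K27ac and H3K9me3, which was not analysed here. There was 1 V5-Dppa2 library, so no replicate error can be given for any value and no test between conditions was made. Depth and cell identity cannot be read from a peak list.

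The 3336 deposited peaks all bear names that begin with TSS, and 3281 of them, 98.4%, had a TSS of some gene within 1000 bp of their midpoint. The list therefore shows which start sites had a peak, and binding elsewhere in these genes was not analysed here. The score of a peak is the authors' value of 10 times the −log10 of its MACS p-value, which depends on sequencing depth and on the control as well as on enrichment. Scores in the list begin at 100, where the authors set their threshold. A gene called not bound may still have had weaker signal.

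Chromatin is controlled by enzymes that add or remove methyl and acetyl groups on histones, by enzymes that methylate or oxidise cytosine, by proteins that read these marks, and by motors that use ATP to move nucleosomes. Polycomb proteins keep developmental genes silent in ESCs, and the BAF remodelling complex is needed for their self-renewal. Dppa2 is a small protein with a SAP DNA-binding domain that is made in ESCs and in the germ line. Most genes of the chromatin machinery start in CpG islands, which are stretches rich in CG dinucleotides.

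The start sites below show what kind of sequence the peaks covered. For the roles with the highest-scoring bound genes, up to 150 bases just before the most upstream TSS inside the peak are given on the strand of the gene, from mm9, with each CG dinucleotide in capitals. No window overlaps an annotated exon. Kat2b was also due by this rule, but only 33 bases qualified and it is not shown. Suz12 and Ezh2, subunits of Polycomb repressive complex 2 without a peak, were added after their values had been seen, for contrast.

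Phf2: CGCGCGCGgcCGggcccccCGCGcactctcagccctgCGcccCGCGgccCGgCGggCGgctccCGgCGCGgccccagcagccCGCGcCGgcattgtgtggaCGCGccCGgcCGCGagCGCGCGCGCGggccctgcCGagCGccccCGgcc
Chd5: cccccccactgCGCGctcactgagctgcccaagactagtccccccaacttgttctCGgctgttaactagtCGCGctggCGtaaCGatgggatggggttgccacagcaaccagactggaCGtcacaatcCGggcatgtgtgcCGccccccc
Setd6: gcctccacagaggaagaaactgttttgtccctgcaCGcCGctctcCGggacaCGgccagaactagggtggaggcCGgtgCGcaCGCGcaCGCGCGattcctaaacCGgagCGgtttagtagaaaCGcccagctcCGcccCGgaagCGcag
Arid1b: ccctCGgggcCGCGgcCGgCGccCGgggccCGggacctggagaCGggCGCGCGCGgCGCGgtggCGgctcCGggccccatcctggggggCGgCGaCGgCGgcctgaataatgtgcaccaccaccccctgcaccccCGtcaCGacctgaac
Mllt4: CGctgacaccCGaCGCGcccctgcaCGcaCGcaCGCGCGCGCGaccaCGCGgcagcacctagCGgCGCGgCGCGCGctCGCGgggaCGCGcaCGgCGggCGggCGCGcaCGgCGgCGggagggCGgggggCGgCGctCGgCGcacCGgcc
Sirt5: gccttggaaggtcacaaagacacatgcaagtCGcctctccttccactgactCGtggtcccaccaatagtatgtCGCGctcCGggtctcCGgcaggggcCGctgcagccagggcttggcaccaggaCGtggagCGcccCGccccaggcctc
Kdm1a: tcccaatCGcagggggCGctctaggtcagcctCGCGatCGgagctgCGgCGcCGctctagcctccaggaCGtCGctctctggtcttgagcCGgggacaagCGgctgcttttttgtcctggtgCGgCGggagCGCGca
Suz12 (not bound): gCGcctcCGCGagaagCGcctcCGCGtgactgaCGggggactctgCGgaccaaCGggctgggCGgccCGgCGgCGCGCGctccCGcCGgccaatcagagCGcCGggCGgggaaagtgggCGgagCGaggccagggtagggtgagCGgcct
Ezh2 (not bound): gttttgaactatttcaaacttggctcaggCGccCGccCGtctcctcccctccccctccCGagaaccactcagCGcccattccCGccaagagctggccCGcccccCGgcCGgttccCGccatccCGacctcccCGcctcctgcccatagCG

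The sequences before Phf2, at chr13:48966255-48966404 on the minus strand, and Mllt4, at chr17:13897396-13897545 on the plus strand, were poor in A and T, with a GC content of 88.7% and 86.0%. The Phf2 sequence held 32 CG dinucleotides and the Mllt4 sequence 37. Arid1b, at chr17:4994789-4994938 on the plus strand, held 22 CG dinucleotides, and its sequence lies in an intron of a transcript that starts further upstream. The Mllt4 sequence lies before that gene and in introns of Tcte2, which is on the opposite strand. The sequences before Setd6, at chr8:98239665-98239814 on the plus strand, and Kdm1a, at chr4:136158639-136158775 on the minus strand and 137 bases long, held 17 and 16. Those before Chd5, at chr4:151712610-151712759 on the plus strand, and Sirt5, at chr13:43460732-43460881 on the plus strand, held only 10 each. The unbound Suz12, at chr11:79806458-79806607 on the plus strand, held 23 and Ezh2, at chr6:47545341-47545490 on the minus strand, held 13. The number of CG dinucleotides just before the TSS thus overlapped between the bound genes shown and the unbound pair.

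Dppa2 peaks were found at 20.4% of the chromatin genes (34 of 167, 95% exact Clopper-Pearson interval 14.5 to 27.3%). Among all protein-coding genes 14.2% were bound (3169 of 22367). The intervals given here cover counting error only and take genes as independent, which members of one family are not. The role with the most bound genes was the nucleosome remodellers, 9 of 23. None of the Polycomb and HP1 genes among the 167 was bound, while Rybp and Yaf2, Polycomb subunits that the choice by name leaves out, were. Raising the minimum score to 200, a p-value of 1e-20, left 16 genes, or 9.58%, beside 8.06% of all protein-coding genes.

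**Figure D1:**
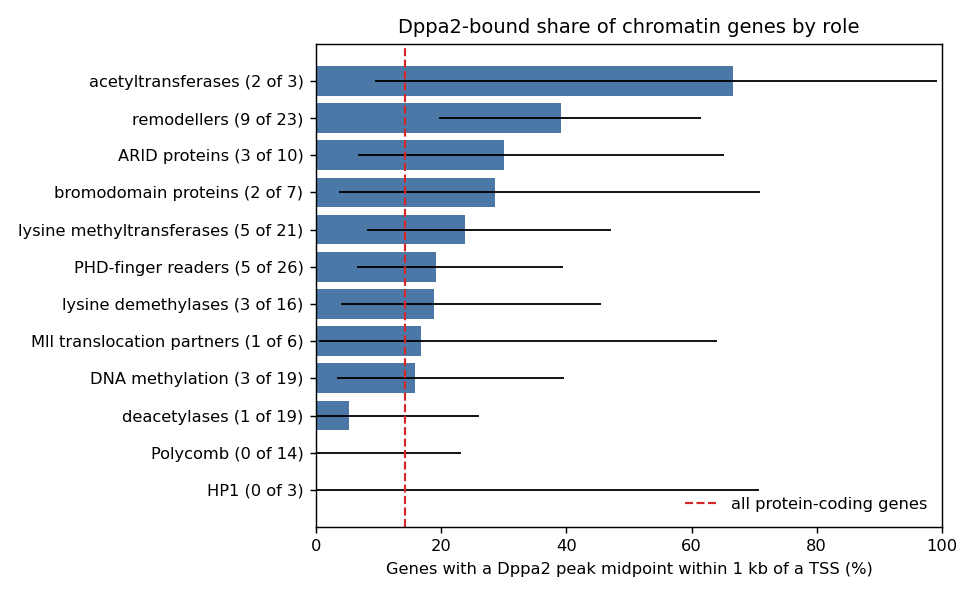
Share of chromatin genes with a Dppa2 peak midpoint within 1 kb of a TSS, by role as set from the gene names. Bars give the percent bound, black lines the 95% exact Clopper-Pearson intervals and the red dashed line the 14.2% of all protein-coding genes; remodellers reach 39.1% and Polycomb and HP1 genes 0%, and the intervals of all roles but the remodellers span the line.

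Promoter composition and the number of annotated start sites moved with these shares. GC content and CpG ratio were taken over 1000 bp centred on the TSS that most transcripts share. GC made up 61.9% of the bases at the median chromatin gene and 54.8% at the median protein-coding gene. The CpG ratio, the CG dinucleotides found over those that the C and G content predicts, had medians of 0.792 and 0.543. A promoter was called CpG-rich at a ratio of at least 0.6 with a GC content of at least 55%, which held for 116 of the 167 chromatin genes. Of these 116 genes 29 were bound, or 25.0% (95% exact interval 17.4 to 33.9%), beside 27.1% of all protein-coding genes with a CpG-rich promoter. Among the other promoters 5 of 51 chromatin genes were bound, or 9.80%, beside 6.10%. The higher share over all chromatin genes was not seen among CpG-rich promoters taken alone. With the content taken over 500 bp the order turned, with 26.4% of chromatin genes beside 24.1% of all genes, so the order depended on the window.

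The chromatin genes had a median of 5 annotated TSSs, beside 2 for all protein-coding genes, and a peak near any of them made a gene bound. Of the genes with 1 TSS 15.0% of chromatin genes were bound (3 of 20), beside 11.7% of all genes. With 2 to 4 TSSs the shares were 17.9% (10 of 56) and 14.9%, and with 5 or more TSSs 23.1% (21 of 91) and 17.8%. Among genes with both a CpG-rich promoter and 5 or more TSSs, 19 of 65 chromatin genes were bound, or 29.2%, beside 25.6% of all such genes. Over all protein-coding genes with a CpG-rich promoter the share was 27.1%, so 5 or more TSSs did not go with a higher share there. With 1 TSS for each gene, the one shared by most transcripts, 32 chromatin genes were bound, or 19.2%, beside 13.5%. All of these background shares lay inside the exact intervals of the chromatin genes, except that at 1 TSS per gene the interval began at 13.5%, the value of the background itself. The part of either property in the overall difference was not tested.

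**Figure D2:**
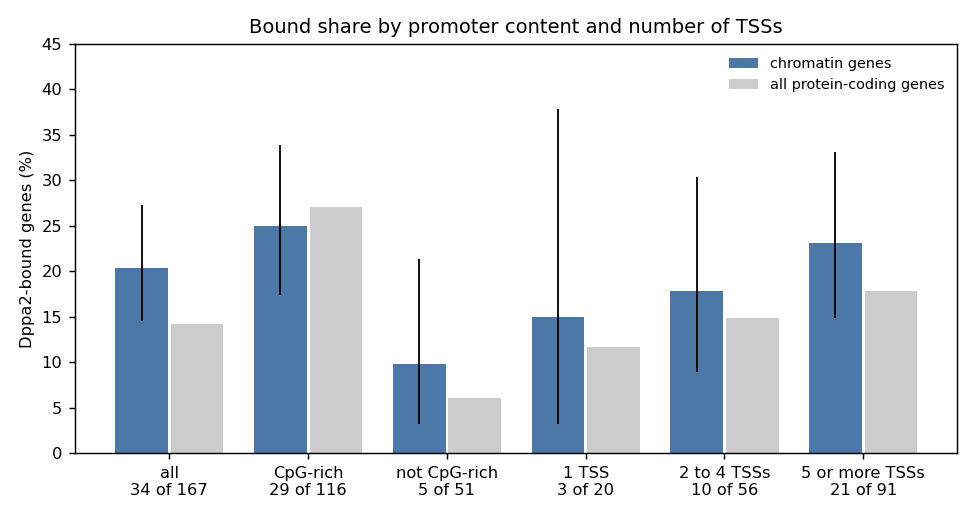
Percent of genes bound by Dppa2, for chromatin genes (blue, with black 95% exact Clopper-Pearson intervals and counts under the axis) and all protein-coding genes (grey). Over all genes chromatin genes stand at 20.4% beside 14.2%, and among CpG-rich promoters at 25.0% beside 27.1%.

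Within the chromatin genes, the 34 bound ones had more CpG-rich promoters than the rest. Their median CpG ratio was 0.876, with quartiles at 0.788 and 0.958, and their median GC content 67.2%. The 133 others had a median ratio of 0.771, with quartiles at 0.547 and 0.850, and a median GC content of 60.1%. The ranges overlapped widely, from 0.235 to 1.14 in bound genes and from 0.0897 to 1.12 in the others. The bound gene with the lowest ratio was Phf20, whose peak lies at a different start site from the one measured. Over all protein-coding genes the contrast was wider, with median ratios of 0.776 in bound genes and 0.467 in the others. The median GC contents there were 63.2% and 53.3%.

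**Figure D3:**
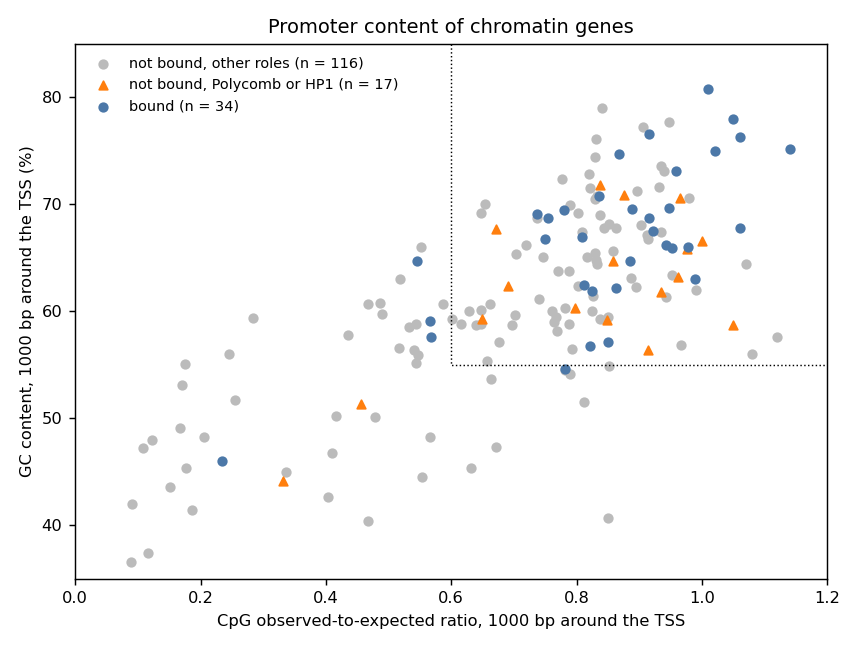
GC content (percent) against CpG observed-to-expected ratio in the 1000 bp around the TSS shared by most transcripts, 1 point per chromatin gene. Blue points are bound, orange triangles are unbound Polycomb and HP1 genes and grey points are other unbound genes; dotted lines bound the CpG-rich corner, which holds 29 of the 34 bound genes and 15 of the 17 Polycomb and HP1 genes.

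The nucleosome remodellers, here only the genes named Smarc or Chd, held the most bound genes, 9 of 23. Their exact interval ran from 19.7 to 61.5%, the only one among 12 roles that lay above 14.2%. It includes the 27.1% of all protein-coding genes with a CpG-rich promoter. Of further remodelling genes outside this choice, Ep400 was bound, while Ino80, Srcap, Bptf, Hells, Atrx and the Baz genes had no peak. At a score of at least 200, 4 of the 23 were left, beside 8.06% of all protein-coding genes. Of the 23 promoters 17 were CpG-rich. Their motor proteins use ATP to slide, space or evict nucleosomes. Of the 10 Chd genes 4 had a peak. Chd5, which encodes a motor of NuRD-type complexes best known from neurons and testis, had the second highest score of all the chromatin genes. Its peak, at chr4:151712237-151714580, scored 653 and ranked 180 among the 3336 peaks. The peak is 2344 bp wide, with its midpoint in an intron 412 bp downstream of the nearest TSS. Chd1, whose paired chromodomains read H3K4me3, had a score of 333 and a midpoint 212 bp downstream. Chd6 scored 269, with the midpoint 23 bp downstream. Chd7, the gene mutated in CHARGE syndrome, scored 150, with the midpoint 70 bp upstream. Chd2, Chd3, Chd4, Chd8, Chd9 and Chd1l had no peak within 1000 bp.

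Among the 13 Smarc genes 5 were bound. Smarca5, which encodes the ISWI motor Snf2h, had a peak with a score of 284 over 2102 bp and its midpoint 247 bp downstream of the nearest TSS. In this peak 23.3% of the 36-mers occur more than once on the 21 chromosomes of mm9. Reads from other copies could therefore be counted in this peak. The other bound Smarc genes encode BAF subunits. Smarcd1 had a score of 191 with the midpoint 121 bp upstream, and the TSS of the protein-coding Gm17349 lay 303 bp from the midpoint. Smarcd3 had a score of 145 with the midpoint 239 bp upstream, and Smarcc2 a score of 121 with the midpoint 17 bp downstream. The peak at Smarce1, at chr11:99091059-99092612, scored 100 and ranked 3336, the last of the list, with the midpoint 75 bp upstream.

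Counted by complex rather than by family, 7 of 15 subunits of BAF and the related PBAF complex were bound. These 15 are the subunits among the 167 genes, a grouping made after the values had been seen. Of all protein-coding genes 14.2% were bound, and of those with a CpG-rich promoter 27.1%. To the 4 bound Smarc genes the complexes add Arid1b, Arid2 and Brd7. Arid1b, the alternative DNA-binding subunit to Arid1a, had a score of 328, and its peak at chr17:4994588-4996682 had the highest GC content of all peaks at chromatin genes, 75.9%. The midpoint lay in a coding exon, 561 bp from the nearest TSS and 1303 bp from the TSS shared by most transcripts. Arid2, which marks the PBAF form, had a score of 247 with its midpoint 1 bp upstream of a TSS. Brd7, a bromodomain subunit of PBAF, scored 195 with the midpoint 217 bp downstream. The motor subunits Smarca4 and Smarca2 had no peak, and the midpoint nearest to Smarca4 was 68.8 kb away. Smarcb1, Smarcc1, Smarcd2, Arid1a, Brd9 and Phf10 had none either. Nor had Actl6a, Actl6b, Dpf1, Dpf2, Dpf3, Pbrm1 and Ss18, further subunits that the choice by name leaves out. At a score of at least 200, 2 of the 15 were left, beside 8.06% of all protein-coding genes.

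Arid4a, a subunit of the Sin3 corepressor complex, was the other bound gene of the ARID group. Its peak scored 203 with the midpoint 111 bp upstream of a TSS, and the TSS of 3110056K07Rik lay 765 bp from the same midpoint. Of the 10 ARID genes 3 were bound, and all 3 had scores of at least 200.

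**Figure D4:**
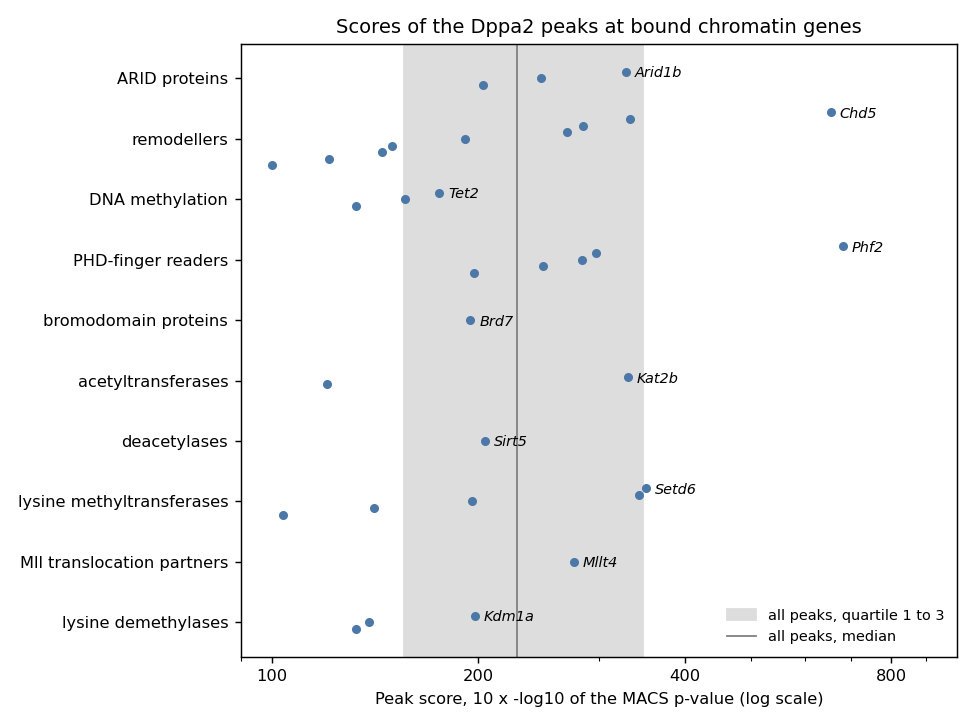
Scores of the Dppa2 peaks at 33 of the 34 bound chromatin genes by role, on a log scale, 1 point per gene, with the highest gene of each role named. The grey band runs from the lower quartile, 156, to the upper quartile, 348, of all 3336 peaks and the line marks their median, 228; only Phf2, Chd5 and Setd6 lie right of the band.

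Proteins with PHD fingers, a fold that reads the methylation state of H3K4 in many of them, gave the highest score. Phf2, which encodes a histone demethylase of the JmjC class, has 1 annotated TSS. Its peak, at chr13:48965140-48967204, scored 681 and ranked 153 of 3336. The midpoint lay 82 bp downstream of the TSS in the UTR, and the TSS of Gm8619 lay 309 bp from it. Phf3 scored 297, with the midpoint 188 bp downstream of a TSS. Phf20, a subunit of the NSL acetyltransferase complex, scored 283, with the midpoint 173 bp downstream of the nearest TSS. The Phf20 peak lies at an upstream start site, 26438 bp before the TSS shared by most transcripts, and covers 5 of the 12 annotated TSSs. Phf21b scored 249, with the midpoint 67 bp downstream and in a coding exon. Of the 21 Phf genes the other 17 had no peak in the window. Of the 5 Ing genes, whose products read H3K4me3 in acetylating and deacetylating complexes, only Ing1 was bound. The Ing1 peak scored 197 and was the widest at a chromatin gene, with 3409 bp and rank 39 by width, and its midpoint lay 419 bp downstream.

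Among the lysine methyltransferases 5 of 21 genes were bound, and 20 of the 21 had a CpG-rich promoter. Setd6, which methylates proteins other than histones as well, had the highest score of this group. It scored 351 at chr8:98239433-98240875, with the midpoint 92 bp downstream of the nearest TSS and in a coding exon. Suv39h2 scored 343 at chr2:3391492-3392576, with the midpoint 198 bp downstream, and its peak covers all 4 annotated TSSs. Ehmt1 scored 196 with the midpoint 319 bp downstream, and Setdb1 scored 141 with the midpoint 279 bp downstream. Setd2, the H3K36 trimethylase, scored 104 with the midpoint 46 bp downstream. In the Setdb1 peak 61.6% of the 36-mers occur more than once on the 21 chromosomes, the highest value at any chromatin gene, and the gene was no longer bound when such peaks were left out.

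Suv39h2, Ehmt1 and Setdb1 all methylate H3K9, the mark of heterochromatin. Of 6 genes for H3K9 methyltransferases these 3 were bound, and Suv39h1, Ehmt2 and Setdb2 were not. Of 6 genes for H3K4 methyltransferases none was bound, namely Mll1, Mll2, Mll3, Setd1a, Setd1b and Setd7. Both groups were made after the values had been seen, and the difference between them was not tested. Of all protein-coding genes 14.2% were bound, and on chromosome X, where Suv39h1 lies, 1.82%. At a score of at least 200 only Suv39h2 of the H3K9 group was left.

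The lysine demethylases, here only the genes named Kdm, had 3 of 16 genes bound. Phf2 is counted with the PHD-finger genes above. Kdm1a and Kdm1b, the flavin-dependent enzymes that remove methyl groups from H3K4, both had a peak. The Kdm1a peak scored 198 and was the narrowest at a chromatin gene, with 945 bp. Its midpoint lay 80 bp upstream of the nearest TSS. The Kdm1b peak scored 133 with the midpoint 402 bp downstream, and the TSS of Tpmt lay 629 bp from its midpoint. Kdm2a, whose CXXC domain brings it to unmethylated CpG islands, scored 138 with the midpoint 532 bp downstream. None of the 12 genes from Kdm3a to Kdm6b was bound, including Kdm5b, whose nearest peak midpoint was 270 kb away. None of these Kdm genes was left at a score of at least 200.

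The acetyltransferases, here only the genes named Kat, had 2 of 3 genes bound. The exact interval, from 9.43 to 99.2%, includes the background of 14.2%. Kat2a and Kat2b, alternative catalytic subunits of the SAGA complex, were both bound, and Kat5 was not. Of further acetyltransferase genes outside this choice, Ep300, Crebbp, Elp3 and Hat1 had no peak. Kat2b had a score of 331, with the midpoint 859 bp downstream of the nearest TSS, the largest distance of any bound chromatin gene. Kat2a had a score of 120 over 3256 bp, with the midpoint 577 bp upstream, and the TSS of Hspb9 lay 808 bp from it. Neither would count with a window of 500 bp. The peak at Kat2a also had the lowest CpG ratio of all peaks at chromatin genes, 0.419.

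Of the 19 entries for genes that remove acetyl groups 1 was bound. None of the 12 Hdac entries and 1 of the 7 sirtuin genes had a peak within 1000 bp. Sirt5, a mitochondrial enzyme that removes succinyl groups, scored 205, with the midpoint 128 bp upstream of the TSS. Sirt7, a nucleolar deacetylase, was the unbound gene closest to the limit, with a midpoint 1137 bp from a TSS and a score of 202. The share of 1 in 19 had an exact interval from 0.133 to 26.0%, which includes the background of 14.2%, so a lower share than in other genes was not shown. Deacetylase promoters had a median CpG ratio of 0.543, and 6 of 19 were CpG-rich.

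Of the bromodomain genes, whose products read acetylated histones, Brd7 is described above with PBAF. Brd2 and Brd3 had no peak, with nearest midpoints 65.3 and 38.0 kb away.

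In the DNA methylation group 3 of 19 genes were bound, and all had scores below 200. Tet2 and Tet3, which oxidise 5-methylcytosine, scored 175 and 133. The Tet2 midpoint lay 350 bp upstream of the TSS, and the Tet3 midpoint 288 bp downstream. The midpoint nearest to Tet1 was 81.5 kb away. Uhrf1bp1, with a score of 156 and the midpoint 210 bp downstream, is included by its name only and is not an enzyme of DNA methylation. None of the 4 Dnmt genes was bound and none of the 8 Mbd genes. The distance to the nearest midpoint was 61.4 kb for Dnmt1, 132 kb for Dnmt3a, 121 kb for Dnmt3b and 14.6 kb for Dnmt3l. Of the Mll translocation partners 1 in 6 was bound. This was Mllt4, which encodes the cell junction protein afadin, with a score of 275 and the midpoint 166 bp downstream of the nearest TSS. The TSS of Gm16049 lay 472 bp from the same midpoint, and that of the protein-coding Tcte2 was also within 1000 bp.

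The 14 Polycomb genes and the 3 HP1 genes had no peak, although 15 of these 17 promoters were CpG-rich. For the Polycomb genes 0 of 14 allows a share of up to 21.4% by the limit of 3 counts, or 23.2% by the exact interval, both above the background of 14.2%, so a lower share than in other genes was not shown. Distances from a TSS to the nearest midpoint ran from 8.89 kb at Pcgf1 to 462 kb at Eed, with a median of 169 kb. Suz12 and Ezh2, whose promoter sequences are printed above, were 55.8 and 80.6 kb from the nearest midpoint. Cbx7, a chromodomain subunit of Polycomb repressive complex 1, was 43.7 kb away. No window that was tried gave a bound gene in either group. The list holds almost only peaks at start sites, so a wider window could add few genes. The distances given here thus run mostly to peaks at start sites of other genes.

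Some of the chromatin proteins whose own place on the genome the study discusses had no peak at their genes. Kdm5b, Hdac1, Hdac2, Cbx7, Suz12, Ezh2, Smarca4, Brd2 and Brd3 were among them, while Kdm2a was bound. Hdac1 and Hdac2 lay 505 kb and 2.73 Mb from the nearest midpoint. Suv39h1, on the X chromosome, lay 888 kb away.

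Some closely related genes differed in their state. Only 20.4% of the chromatin genes and 14.2% of all protein-coding genes were bound, so most relatives of a bound gene would be unbound at such shares. Suv39h2 had a peak and Suv39h1 none, Ehmt1 but not Ehmt2, Setdb1 but not Setdb2, Arid1b but not Arid1a, and Smarcc2 but not Smarcc1. The CpG ratios of the unbound partners were 0.943 for Suv39h1, 0.789 for Ehmt2, 0.769 for Setdb2, 0.840 for Arid1a and 0.912 for Smarcc1, all in the CpG-rich range. Suv39h1 lies on chromosome X, where 1.82% of all protein-coding genes were bound. Kdm1a with Kdm1b and Kat2a with Kat2b were pairs in which both genes had a peak. Smarca2 with Smarca4 and the 4 Kdm4 genes had none. These groups were picked after the states were known.

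The peaks at chromatin genes were of moderate score. Their median was 197, with quartiles at 142 and 284, beside 228 with quartiles at 156 and 349 for the 3302 other peaks. Of the 34 peaks 20 had a score below the median of all peaks and 3 were above the upper quartile. Only Phf2 and Chd5 were among the 333 highest of all. They were wider, with a median of 1648 bp beside 1432 bp, and richer in GC, with 66.0% beside 62.0%. The CpG ratio within the peak had a median of 0.857 beside 0.712 for the other peaks. The quartiles of all of these measures overlapped between both sets of peaks.

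Each of the 34 peaks covered at least 1 TSS of its gene, and none was shared by 2 chromatin genes. The median midpoint lay 129 bp downstream of the nearest TSS, with quartiles at -73.8 and 271 bp, and for all bound protein-coding genes it was 121 bp with quartiles at -28 and 289 bp. The midpoint was downstream in 23 genes and upstream in 11. It fell in an intron in 14 genes, in a UTR in 9, in a coding exon in 5, in a non-coding exon in 1 and before the gene in 5. In 8 genes the peak covered every annotated TSS, and in the other 26 at least 1 start site lay outside it. In all 34 cases a TSS of the chromatin gene was the one nearest to the midpoint. A start site of another gene lay within 1000 bp of the midpoint in 8 cases, 4 of them protein-coding, and there the peak cannot be given to a single gene.

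**Figure D5:**
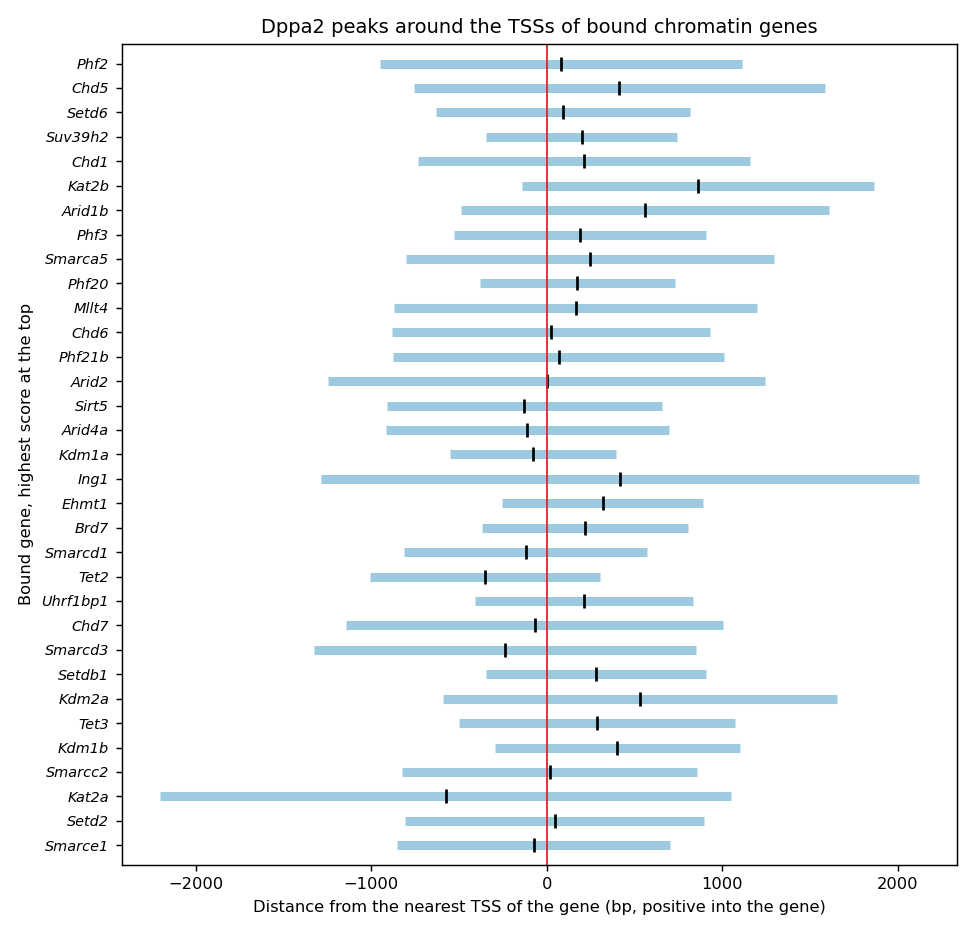
Extent of the Dppa2 peak (pale blue) and its midpoint (black tick) for 33 of the 34 bound chromatin genes, in bp from the nearest TSS of the gene, which is the red line, with positive values into the gene and the highest score at the top. Every peak crosses the TSS, 23 midpoints lie downstream, and Kat2b and Kat2a have the midpoints farthest downstream and upstream, at 859 and -577 bp.

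Just inside the limit of 1000 bp stood Kat2b at 859 bp and Kat2a at 577 bp, and just outside it Sirt7 at 1137 bp and Phf12, with a score of 196, at 4166 bp. No other chromatin gene had a midpoint between 1000 and 5000 bp from a TSS. The list holds almost only peaks at start sites, so a peak at such a distance would mostly have to lie at another start site. The gap therefore does not show how firm the calls are.

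The numbers of bound genes differed between chromosomes, and those named here were picked after the counts were seen. On chromosome 8, 4 of 6 chromatin genes were bound, namely Setd6, Smarca5, Ing1 and Brd7, where 23.7% of all protein-coding genes were. On chromosome 17 it was 6 of 13, where 13.7% of all genes were. On chromosome 11, with 18 chromatin genes, only Kat2a and Smarce1 were bound, where 18.9% of all genes were. Of the 10 genes on the sex chromosomes, among them Kdm5c, Kdm6a and Phf8, none was bound, and on chromosome X the share of all protein-coding genes was 1.82%.

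Short motifs were counted on both strands from 250 bases before to 50 after the TSS shared by most transcripts. The GC box GGGCGG lay in 76.5% of bound chromatin genes, 64.7% of unbound ones and 43.7% of all protein-coding genes. The CCAAT box, searched as CCAAT, lay in 23.5%, 42.1% and 37.7%. The letters of the ETS motif CCGGAAG were found in 5.88% of bound chromatin genes, 13.5% of unbound ones and 10.8% of all genes, and those of the YY1 motif AAGATGG in 2.94%, 12.8% and 6.92%. The E-box CACGTG lay in 2.94%, 9.02% and 7.75%, and the NRF1 core GCATGCG in 5.88%, 7.52% and 4.24%. The E2F motif TTCCCGC lay in 8.82%, 7.52% and 5.58%, and the TATA box TATAAA in 2.94%, 5.26% and 13.4%. Among the 34 bound genes these 6 shares stand for 1 to 3 genes each. From 500 bases before to 100 after the TSS, the YY1 letters lay in 14.7% of bound and 19.5% of unbound chromatin genes, and the order for E2F turned, with 11.8% and 15.0%. In this window the CCAAT box lay in 47.1% and 57.1%, beside 57.2% of all protein-coding genes. The ETS letters lay in 5.88% and 22.6% there, and the E-box in 2.94% and 15.0%. A GC box is itself made of G and C, and its share moves with the GC content given above.

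A further 76 symbols of enzymes and complex subunits that the name rule leaves out matched 77 gene entries. Of these 9 were bound, or 11.7% (95% exact interval 5.49 to 21%), beside 14.2% of all protein-coding genes. Brdt, a bromodomain gene of the testis, had the highest score, 704 with rank 138, which is above that of any of the 167 genes. Its peak, at chr5:107759878-107760653, is only 776 bp wide with the midpoint 54 bp downstream of the TSS. Ep400, a remodelling motor, scored 235, and these were the only 2 with scores of at least 200. Whsc1, an H3K36 methyltransferase gene, scored 194. The methyltransferase genes Smyd4, Smyd2, Prmt7 and Carm1 scored 181, 171, 124 and 103. Rybp and Yaf2, a pair of related subunits of variant Polycomb complexes, scored 138 and 151, unlike the 14 Polycomb genes above, while Rnf2, Ring1, Bmi1, Jarid2, Mtf2 and the Phc genes had no peak.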

How the data were processed

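Before deposit the authors filtered out low-complexity reads, mapped the others to mm9 (Bowtie 0.12.7), dropped duplicates (Picard 1.81) and called peaks with MACS 1.4.2 against the control ChIP, with versions as in the submitters' processing notes. The deposited score of each peak is 10 times its −log10 p. They kept peaks of 100 reads or more with p no higher than 1e-10. Where a read aligned to several places the best alignment was kept, so peaks in duplicated sequence can hold reads from other copies.

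Peak starts were read as BED and printed from 1. Positions were set against mm9 and GENCODE M1 (NCBIM37, the same assembly). The list gives no summits, so midpoints were used. GC content, CpG ratios, motifs and the share of 36-mers found more than once on the 21 chromosomes were computed from the mm9 sequence. Python 3.11.15, numpy 2.4.6, scipy 1.17.1, numba 0.67.0 and matplotlib 3.10.9 were used. Members, role groups, named genes (all bound members, others set by name, mostly chromatin proteins in the paper, and those near the limit) and further genes were chosen with earlier results of these data known. The 5 samples other than V5-Dppa2 were not analysed here. The values of 1 bound gene enter the counts and are not reported here.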

Additional observations from a re-analysis of the deposited data

How the results depend on the processing

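With 1 library no replicate could be left out, and no paired analysis was possible because no groups were compared. The unknown depth limits how many weaker peaks were missed. Of the 8 alternatives for the bound state, a score of at least 200 lowered the bound chromatin genes from 34 to 16 and their share to 9.58%, and that of all protein-coding genes to 8.06%, as fewer peaks enter; under the other 7 between 30 and 35 chromatin genes were bound. The share of all protein-coding genes, 14.2%, was 12.6% with a window of 500 bp, 13.5% with 1 TSS per gene, 12.7% when a peak counted for its nearest gene only and 12.9% without peaks of 10% or more repeated 36-mers, each by the construction of the alternative. The window of 500 bp lost Arid1b, Kat2a, Kat2b and Kdm2a, 1 TSS per gene lost Arid1b and Phf20, and leaving out repeated sequence lost Setdb1 and Smarca5. A window of 2000 bp, or any base of the peak within 1000 bp, added only Sirt7. The 12 genes bound under all 8 were Arid2, Arid4a, Chd1, Chd5, Chd6, Mllt4, Phf2, Phf21b, Phf3, Setd6, Sirt5 and Suv39h2. The median midpoint position, 129 bp downstream of the nearest TSS, became 295 bp downstream when taken from the TSS shared by most transcripts. The share bound among CpG-rich chromatin genes was 25.0%, and 29% at a ratio of at least 0.75 beside 31.2% of all such genes. With motif windows from 500 bases before to 100 after the TSS, all 8 motifs lay in more chromatin genes, since the window is longer: the GC box in 76.0% in place of 67.1%, CCAAT 55.1% (38.3%), ETS 19.2% (12.0%), YY1 18.6% (10.8%), E2F 14.4% (7.78%), TATA 13.2% (4.79%), the E-box 12.6% (7.78%) and NRF1 10.2% (7.19%).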
